A study of Mus musculus with 96 samples.

Results

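The hearts of mice were followed here through 7 genes that endothelial cells (ECs) use to take up fatty acids: Lpl, Gpihbp1, Angptl4, Cd36, Fabp4, Meox2 and Tcf15. The set is a list of names, taken for what the genes are known to do. They are 7 of the 50868 genes listed in every library, and all 7 passed the filter on low counts in every fit.

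The heart burns mainly fatty acids, and most of these reach it as triglycerides inside lipoproteins. Lipoprotein lipase (Lpl) cuts the triglycerides at the capillary wall. Cardiomyocytes make and secrete most of the enzyme, and the endothelial protein Gpihbp1 binds it, carries it across the cell and holds it on the luminal face. Angptl4 is a secreted inhibitor of the enzyme, known to be induced by fatty acids through PPAR receptors and by low oxygen. The freed fatty acids enter cells with the help of the membrane glycoprotein Cd36, and Fabp4 is a small carrier that binds them inside capillary ECs and fat cells. Meox2, a homeobox factor, and Tcf15, a basic helix-loop-helix factor, are known to act as a pair in ECs of the heart and to raise genes of fatty acid transport.

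Total RNA was sequenced from cardiomyocytes (CMs), ECs, fibroblasts (FBs) and hematopoietic cells (HCs) of male C57Bl/6J mice aged 12 to 14 weeks. The Day 0 mice were not operated on, and there was no sham surgery, while the other groups were taken 1, 3, 7, 14 and 28 days after the left anterior descending coronary artery had been tied off for good. CMs were spun down at low speed, HCs were captured with beads against CD45, ECs were captured from the unbound cells with beads against CD144 (VE-cadherin, the product of Cdh5), and FBs were the cells that then stuck to uncoated dishes. Each library was a pool of material from 3 mice (2 where a sample was missing), joined as RNA in one account of the study and as cells in another, and each of the 24 groups had 4 libraries, 96 in all. The 4 libraries of a group are called biological replicates in one source and technical in another, so the p-values measure the spread between these pools, which may be partly technical. Each cell type was prepared as a batch of its own, so cell type and preparation cannot be told apart. The 4 cell types of a day came from the same mice, but whether equal replicate numbers mark the same mice is not stated, and the tests between cell types treat the libraries as independent. All groups were of the same strain and sex.

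Libraries held 12407097 to 33770020 estimated reads in ECs, 13490620 to 55692221 in CMs, 2663661 to 36499202 in FBs and 16166778 to 40332246 in HCs. The share of rRNA was 53.35% to 68.17% in CMs and 11.5% to 28.4% in ECs. In 8 libraries, rare genes lying on the other strand of an abundant gene summed to 1668 to 4531 CPM (counts scaled to a common library size), while in the other 88 this sum reached at most 383 CPM. Of these, 3 were EC libraries (replicates 1 and 2 of Day 0 and replicate 3 of Day 28), 3 were FB libraries (replicates 2 and 3 of Day 3 and replicate 4 of Day 28) and 2 were HC libraries (replicates 2 and 4 of Day 28). Where leaving out these 8 together ended a call described here, the value without them is given. FB Day 3 replicates 2 and 3 were also the shallowest libraries. The study left out 2 FB libraries of Day 3 and 1 HC library of Day 28 as outliers in total RNA, without giving their numbers. All 96 libraries were kept in the main tests here.

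Levels are in CPM after TMM scaling, a mean ± SD over 4 libraries, and CPM is not divided by gene length, so levels are compared for 1 gene at a time. Changes are log2 fold changes ± standard error (SE) from edgeR's quasi-likelihood test, adjusted by Benjamini and Hochberg over all genes tested, and a change was called at an adjusted p under 0.05. Where the words rose or fell are used, the change was called. In these bulk samples, fewer cells of a type and less RNA per cell cannot be told apart.

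The genes lie apart in the genome (GRCm38/mm10, GENCODE M21). Lpl spans chr8:68880491-68907448 on the plus strand, Gpihbp1 chr15:75596628-75599481 (plus), Angptl4 chr17:33773750-33781830 (minus), Cd36 chr5:17781690-17888801 (minus), Fabp4 chr3:10204088-10208576 (minus), Meox2 chr12:37108540-37179534 (plus) and Tcf15 chr2:152143561-152149097 (plus). All 7 are protein-coding. No annotated gene overlaps them on the other strand, and the one gene inside a member is Gm48617, an intronic transcript on the strand of Meox2 with a median of 143 reads in EC libraries beside 1626 for Meox2.

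Promoter sequences were at hand for Cd36 and Meox2, and are shown because one is a carrier gene and the other a factor of the pair known to act on such genes. Each is the 250 bases before the RefSeq start of the gene (GRCm38.p6), 5′ to 3′ on the strand of the gene, at chr5:17835897-17836146 for Cd36 and chr12:37108290-37108539 for Meox2. The Cd36 window lies inside the GENCODE span of the gene, away from its outermost 5′ end at 17888801. It therefore stands before an inner start, while the Meox2 window ends right before its gene. Capitals mark matches, on either strand, to 5 short motifs: the E-box CANNTG bound by helix-loop-helix factors, the homeobox core TAATTA, the nuclear receptor half-site AGGTCA, the ETS core CCGGAA and the GC box GGGCGG.
Cd36: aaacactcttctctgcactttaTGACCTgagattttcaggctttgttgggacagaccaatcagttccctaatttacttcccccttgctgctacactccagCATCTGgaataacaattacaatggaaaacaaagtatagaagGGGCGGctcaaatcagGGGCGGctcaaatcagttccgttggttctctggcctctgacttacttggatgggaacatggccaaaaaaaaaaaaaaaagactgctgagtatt
Meox2: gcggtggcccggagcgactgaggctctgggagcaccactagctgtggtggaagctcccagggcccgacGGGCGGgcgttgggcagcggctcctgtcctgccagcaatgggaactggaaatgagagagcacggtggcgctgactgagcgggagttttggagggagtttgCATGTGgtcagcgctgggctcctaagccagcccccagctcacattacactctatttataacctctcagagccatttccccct
The Cd36 window holds 1 E-box at -150 from the start, 1 half-site at -228 (on the other strand) and 2 GC boxes at -109 and -93, and the Meox2 window holds 1 E-box at -82 and 1 GC box at -182. Neither holds a match to TAATTA or CCGGAA. Over all 32851 promoter windows of the same length, 66.2% hold an E-box, 4.84% TAATTA, 14.0% the half-site, 12.03% the ETS core and 32.7% the GC box. The GC content is 43.2% for Cd36 and 62.0% for Meox2.

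In unoperated hearts, ECs were set apart by 4 of the 7 genes. Gpihbp1, Fabp4, Meox2 and Tcf15 were higher in ECs than in each other cell type, by log2 differences of 2.52 to 4.07, with no overlap between libraries. Of all genes tested, 72.7%, 63.8% and 49.5% were called in either direction for ECs against CMs, FBs and HCs. The share of all genes without overlap was not taken, so whether such a gap is rare is not known. Cd36 overlapped between CMs and ECs, Lpl had its highest CPM in CMs, which TPM did not show, and Angptl4 was highest in FBs in the mean. The study's 4 EC markers (Flt1, Kdr, Pecam1 and Cdh5) were highest in the EC libraries, at a summed 2353 CPM, against 268 in CMs, 186 in FBs and 318 in HCs. The EC libraries also held the highest sum of 8 mural cell markers, at 1902 CPM, against 594 in CMs, 551 in FBs and 329 in HCs. The CM markers (Tnnt2, Tnni3, Nppb and Actc1) reached 7.61% of their CM level in EC libraries and 8.11% in HC libraries.

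**Figure D1:**
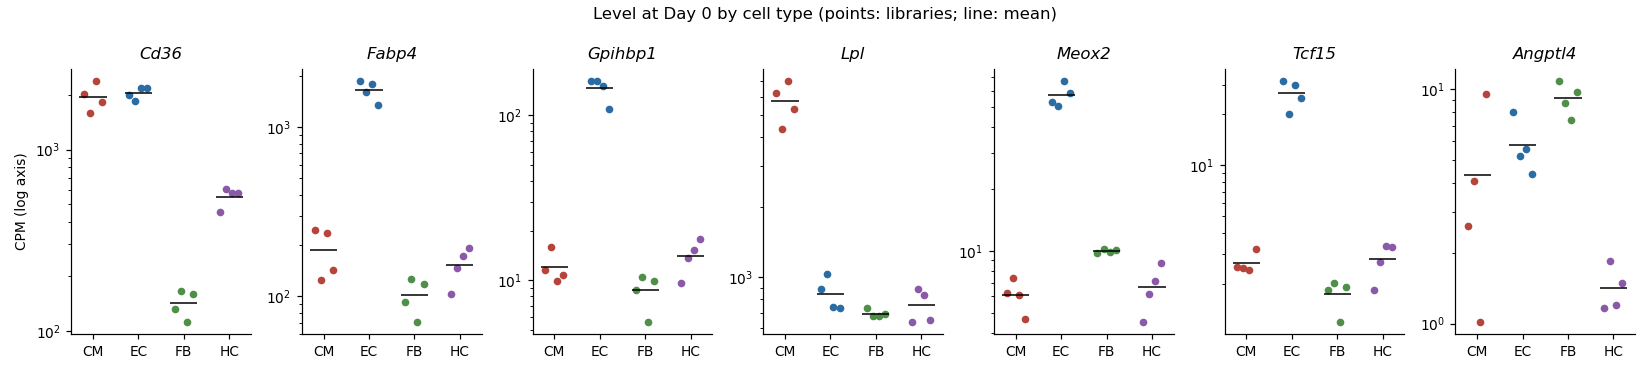
Level of each gene at Day 0 in CMs, ECs, FBs and HCs, in CPM on a log axis, 1 point per library and a line at the mean of 4. Gpihbp1, Fabp4, Meox2 and Tcf15 stand higher in all 4 EC libraries than in any other library, while Cd36 is level between CMs and ECs and Lpl is highest in CMs.

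Lpl at Day 0 was 6192, 4331, 7031 and 5329 CPM in the CM libraries and 883, 1033, 739 and 735 CPM in the EC libraries. The FB libraries held 676 to 733 CPM and the HC libraries 639 to 889 CPM, so HCs overlapped both ECs and FBs, the lowest EC library lay just above the highest FB library, and CMs stood alone. The log2 difference of ECs from CMs was -2.75 ± 0.18 (adjusted p = 2.66e-10), and those from FBs (0.29 ± 0.17, adjusted p = 0.155) and HCs (0.17 ± 0.17, adjusted p = 0.441) were not called, and on unscaled TPM, that is, reads divided by effective length, they turned to -0.92 and -0.71. On that scale the difference from CMs was -0.28 and not called, with mean TPM of 84.3 in FBs, 72.3 in HCs, 54.9 in CMs and 44.1 in ECs, while on TPM scaled to the median of ratios it was -2.69 and called. Called differences were common at Day 0, at 72.7% of the genes tested for ECs against CMs, 63.8% against FBs and 49.5% against HCs, so a call by itself says little of these genes, and the sizes matter more. The EC level of Lpl was 14.8% of the CM level, beside the 7.61% at which the CM markers stood in the same EC libraries.

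Gpihbp1, the anchor of the enzyme, was 160.3, 162, 150.4 and 109.5 CPM in the EC libraries and 9.90 to 15.8 CPM in CMs, 5.57 to 10.5 in FBs and 9.68 to 17.8 in HCs. The log2 differences of ECs were 3.59 ± 0.23 from CMs, 4.07 ± 0.23 from FBs and 3.37 ± 0.22 from HCs. Angptl4 was low in all 4 types, with means of 9.18 ± 1.49 CPM in FBs, 5.79 ± 1.58 in ECs, 4.31 ± 3.72 in CMs and 1.43 ± 0.314 in HCs. Only the difference between ECs and HCs was called (2.01 ± 0.41). The CM libraries ran from 1.02 to 9.58 CPM, across all values of ECs and HCs and part of those of FBs (7.36 to 10.9 CPM).

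Cd36 at Day 0 was 2005, 1849, 2182 and 2195 CPM in ECs and 2039.8, 1584, 2405 and 1834 CPM in CMs, and these libraries overlapped throughout (log2 difference 0.07 ± 0.16, adjusted p = 0.723). On TPM values, which are divided by effective length, scaled to the median of their ratios, the same difference was -0.60 and called, so the order of ECs and CMs for Cd36 depends on the scale. HCs held 452 to 603 CPM and FBs 112 to 166 CPM, each below all EC libraries (1.90 ± 0.17 and 3.85 ± 0.18). On unscaled TPM the difference of Cd36 from HCs was 0.42 and not called, and on scaled TPM it was 1.42 and called. Fabp4, the carrier inside the cell, was 1884, 1619, 1791 and 1358 CPM in ECs, 125 to 247 in CMs, 103 to 193 in HCs and 70.5 to 127 in FBs. ECs exceeded each by log2 differences of 3.15 ± 0.26, 3.43 ± 0.27 and 4.02 ± 0.27, while CMs, HCs and FBs overlapped among themselves.

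Meox2 was 52.8, 50.6, 67.0 and 58.6 CPM in ECs. FBs came next at 9.80 to 10.2 CPM, and CMs (4.67 to 7.34) and HCs (4.51 to 8.70) overlapped below them. Tcf15 was 31.7, 20.0, 30.1 and 25.0 CPM in ECs, and the other 3 types held 1.18 to 3.34 CPM. The log2 differences of ECs ran from 2.52 ± 0.17 (Meox2 against FBs) to 3.94 ± 0.21 (Tcf15 against FBs). Both factors were thus measured on few reads outside ECs: over all days a CM library held 17 to 98 reads of Meox2 and 9 to 69 of Tcf15.

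The low levels outside ECs can be set beside the EC markers of the same libraries. At Day 0 the CM libraries held 8.25% of the EC level of Gpihbp1, 11.3% of Fabp4, 10.6% of Meox2 and 9.91% of Tcf15, beside 11.4% for the summed EC markers. The HC libraries held 9.68%, 9.28%, 11.6% and 10.4% of these genes, beside 13.5% for the markers. The FB libraries held 5.95%, 6.15%, 17.5% and 6.51%, beside 7.91%. Per 100 reads of the EC markers, Gpihbp1 had 6.31 reads in ECs and 4.40 to 4.63 in the other types, Tcf15 1.14 in ECs and 0.870 to 1.03 elsewhere, and Fabp4 71.6 in ECs and 48.1 to 69.8 elsewhere. Meox2 had 2.43 in ECs, 2.31 in CMs and 2.07 in HCs but 5.52 in FBs. These 4 genes therefore stood to the EC markers in similar ratios in every isolate, apart from Meox2 in FBs. Lpl and Cd36 did not, with 36.9 and 87.8 reads per 100 marker reads in ECs but 2178 and 750 in CMs, 385 and 77.2 in FBs and 241 and 175 in HCs. The part of ECs in the other isolates was not tested.

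**Figure D2:**
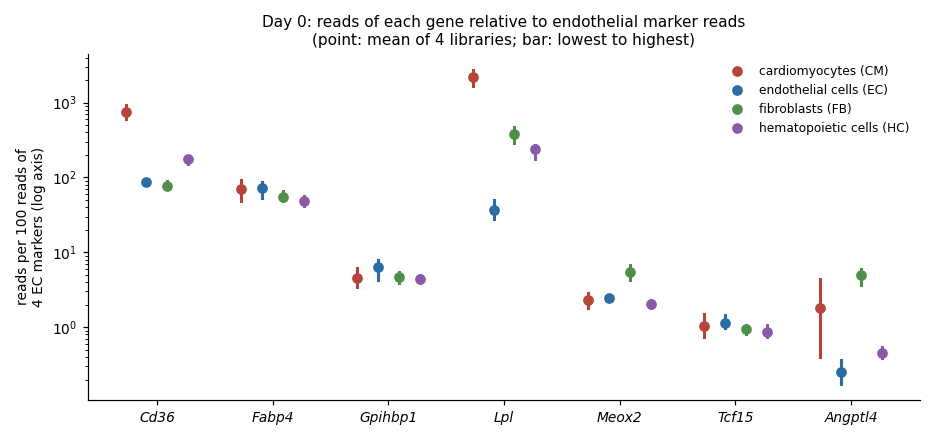
Reads of each gene per 100 summed reads of 4 EC markers at Day 0, on a log axis, by cell type (point: mean of 4 libraries, bar: lowest to highest library). Fabp4, Gpihbp1 and Tcf15 sit close together in all 4 types, while Lpl ranges from 36.9 in ECs to 2178 in CMs.

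After infarction the 6 uptake genes were called lower in ECs on Days 3 and 7. Angptl4, the inhibitor, was called higher on Days 1 and 3. On scaled TPM the fall of Fabp4 was absent, and those of Cd36 on both days and Gpihbp1 on Day 3 were not called. Without the libraries with antisense reads, the falls of Fabp4 and Lpl on Day 3 and of Gpihbp1 on both days were not called. On Day 1 only Angptl4 was called (1 of 7 genes, against 19.0% of all genes tested, 9.87% called higher). On scaled TPM (0.94) and on unscaled TPM (1.31) Fabp4 was called higher on Day 1 as well. On Day 3 all 7 were called, Angptl4 higher and 6 lower, where 45.5% of all genes were called and 22.3% were called lower. On Day 7, 6 were called lower (37.6% of all genes called, 19.6% lower), on Day 14, 4 (27.0% and 14.3%) and on Day 28, 4 (33.7% and 17.4%). The median log2 change of the 7 was -0.66 on Day 3, beside -0.03 for all genes tested. All 5 comparisons share the 4 Day 0 libraries. On unscaled TPM the median of all genes itself moved from Day 0, by 0.11, 0.05, 0.39, 0.42 and 0.51 on Days 1, 3, 7, 14 and 28, and there each of the 6 uptake genes had at least 1 called fall that turned in sign on Days 3 to 28 (the values stand with the other processing alternatives), so values on scaled TPM are given beside the counts. Cell type markers moved in the same EC libraries: the summed EC markers stood at 0.956, 0.859, 0.808, 0.957 and 1.01 times their Day 0 mean on Days 1, 3, 7, 14 and 28, the CM markers at 0.576, 0.461, 0.397, 0.546 and 0.204 times and 8 mural cell markers at 0.683, 0.382, 0.499, 0.661 and 0.517 times. Other marker sums moved too: 8 capillary markers stood at 1.10, 0.668, 0.799, 0.905 and 0.983 times and 6 lymphatic markers at 1.18, 1.81, 3.01, 1.73 and 1.85 times, and 7 fat cell markers at 1.45, 0.468, 0.414, 1.44 and 0.316 times. The lymphatic markers were not particular to ECs at Day 0, with sums of 137 CPM in CMs, 93.3 in ECs, 67.4 in FBs and 33.7 in HCs. The part of these marker shifts in the changes of the 7 genes was not tested.

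**Figure D3:**
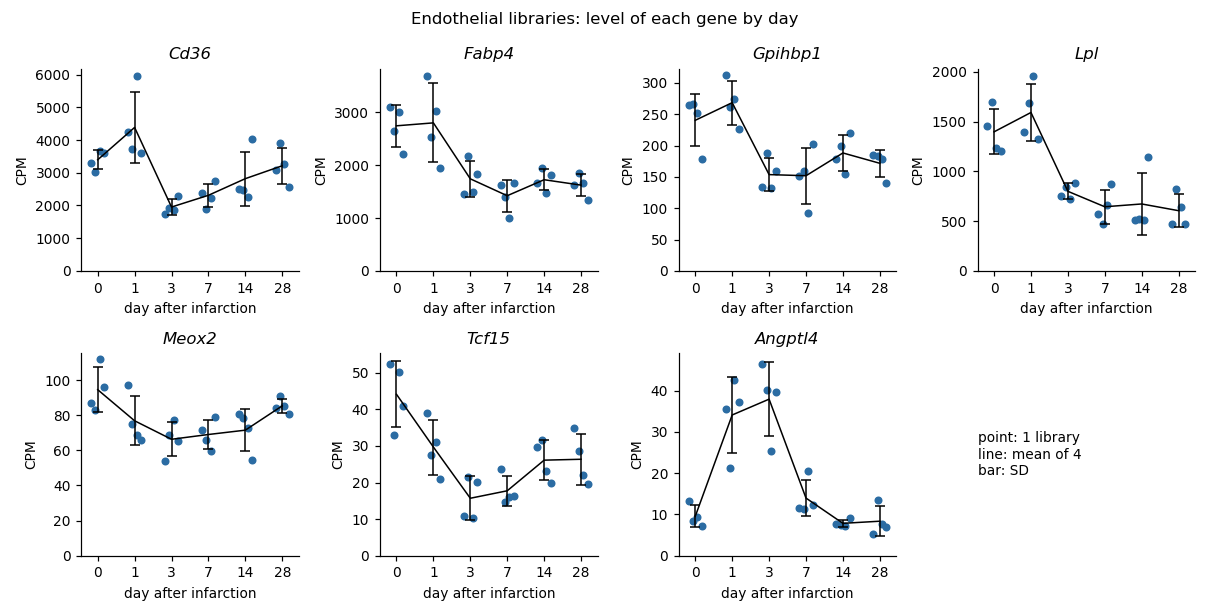
Level of each gene in EC libraries by day after infarction, in CPM (point: 1 library, line: mean of 4, bar: SD). Angptl4 is high on Days 1 and 3, Cd36, Meox2 and Tcf15 are lowest on Day 3 and higher again by Day 28, and Lpl stays low from Day 3 on.

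Lpl in ECs was 1458, 1694, 1237 and 1202 CPM on Day 0 and 1401, 1692, 1954 and 1322 CPM on Day 1, with the days overlapping. It was 750.4, 842, 718 and 888 CPM on Day 3, below every library of Days 0 and 1, and its means were 644 ± 174 on Day 7, 673 ± 312 on Day 14 and 605 ± 168 on Day 28. The log2 changes from Day 0 were -0.81 ± 0.24 on Day 3 (adjusted p = 0.0104), -1.12 ± 0.25 on Day 7, -1.06 ± 0.25 on Day 14 and -1.21 ± 0.25 on Day 28 (adjusted p = 7.67e-04). No return was called for Lpl, with Day 28 at -0.40 ± 0.24 against Day 3 (adjusted p = 0.178). Day 14 replicate 4, at 1140.0 CPM, stood apart from the other 3 libraries of that day at 512 to 522 CPM. That library held 634 reads of the fat cell markers, beside 30.9 to 57.0 in the other 3, and without it the change on Day 14 was -1.43 and called. Over the same days the CM markers in the EC libraries fell to 0.204 to 0.546 of their Day 0 level, and Lpl is a CM transcript too. The part of CM RNA in the course of Lpl was not tested. Without the libraries with antisense reads the change was -0.61 on Day 3 and -0.86 on Day 14, both no longer called, and -0.92 on Day 7 and -1.05 on Day 28, both called. On scaled TPM the changes on Days 3, 7, 14 and 28 were -0.73, -0.93, -1.06 and -1.19, all called.

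Gpihbp1 in ECs was 264, 266, 252 and 179 CPM on Day 0 and 135, 188, 132 and 160.0 CPM on Day 3, where 1 of the Day 3 libraries exceeded the lowest Day 0 library. The mean was 268 ± 35.3 CPM on Day 1 and stayed between 152 and 188 CPM from Day 7 to Day 28. It fell by 0.65 ± 0.18 on the log2 scale on Day 3, by 0.66 ± 0.18 on Day 7 and by 0.49 ± 0.18 on Day 28 (adjusted p = 0.0449), and the change on Day 14 was not called (-0.35 ± 0.18). The Day 28 call was lost without any 1 of 15 libraries, EC Day 0 replicates 1, 2 and 3 among them. Without the libraries with antisense reads the changes were -0.49 on Day 3, -0.50 on Day 7 and -0.35 on Day 28, none called. On scaled TPM they were -0.57 and -0.35 on Days 3 and 28, not called, and -1.08 on Day 7, called.

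Angptl4 in ECs was 13.3, 8.53, 9.33 and 7.11 CPM on Day 0, 35.5, 21.2, 42.5 and 37.3 on Day 1 and 46.6, 40.2, 25.4 and 39.7 on Day 3. All 8 early libraries exceeded all Day 0 libraries. The mean was back at 14.0 ± 4.39 CPM on Day 7, 7.86 ± 0.839 on Day 14 and 8.37 ± 3.60 on Day 28. It rose by 1.84 ± 0.27 on Day 1 (adjusted p = 8.67e-05) and 1.99 ± 0.27 on Day 3 (adjusted p = 6.32e-06), and fell by 1.44 ± 0.27 between Day 3 and Day 7 (23.3% of all genes called), and the changes from Day 0 on Days 7, 14 and 28 were not called. The early changes were 2.05 and 2.21 without the libraries with antisense reads, and 1.16 and 1.25 on the scaled TPM, all called.

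Cd36, the membrane carrier, was 3309, 3032, 3653 and 3589 CPM in ECs on Day 0 and 4231, 3730.2, 5972 and 3608 CPM on Day 1 (0.37 ± 0.18, adjusted p = 0.162). On Day 3 it was 1749.6, 1914, 1847 and 2295 CPM, below every library of Days 0 and 1, a fall of 0.80 ± 0.18 from Day 0 (adjusted p = 0.00129) and of 1.17 ± 0.18 from Day 1, between which days 22.5% of all genes were called. The means then were 2310.1 ± 358 on Day 7, 2819 ± 824 on Day 14 and 3213 ± 556 on Day 28. Cd36 came back: it rose by 0.72 ± 0.18 from Day 3 to Day 28 (adjusted p = 0.00287, where 47.6% of all genes were called), and Day 28 against Day 0 was -0.08 ± 0.18 (adjusted p = 0.766). Between them lay a fall of 0.56 ± 0.18 on Day 7 (adjusted p = 0.0208), a call lost without EC Day 0 replicate 3 or 4 or EC Day 7 replicate 2 or 3 and on scaled TPM (-0.31). The fall on Day 3 was -0.89 and called without the libraries with antisense reads, and -0.46 and not called on the scaled TPM, where the rise from Day 3 to Day 28 was 0.55 and not called either. Salmon's split of Cd36 reads among its transcripts was unstable, with Cd36-201 given 0% to 76.2% of the reads of an EC library, so only the gene sum is used.

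Fabp4 was 3109.7, 2655, 2998 and 2221 CPM in ECs on Day 0 and 3695, 2537, 3035 and 1938 CPM on Day 1. On Day 3 it was 1459.6, 2178, 1497 and 1833 CPM, all below Day 0, and the mean was 1422 ± 304 on Day 7, 1725 ± 203 on Day 14 and 1623 ± 212 on Day 28. The log2 changes from Day 0 were -0.66 ± 0.19, -0.95 ± 0.19, -0.67 ± 0.19 and -0.76 ± 0.19 on Days 3, 7, 14 and 28, and on the scaled TPM they were 0.13, -0.03, 0.18 and 0.02, none called, with the sign turned on 3 of the 4 days. The scales part at Day 0: the effective length that Salmon gave Fabp4 was 1026.4, 663.5, 789.1 and 447.5 bases in the Day 0 libraries and 312.1 to 478.8 bases in the EC libraries of all later days. Without the libraries with antisense reads the changes in counts were -0.58, -0.87, -0.60 and -0.70, of which the one on Day 7 was called. The direction of Fabp4 in ECs thus depends on whether its reads are divided by that length. On Day 1 the change was not called in counts, but on scaled TPM it was 0.94 and called.

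Meox2 was 87.1, 82.9, 112 and 95.8 CPM in ECs on Day 0 and 53.9, 68.6, 77.1 and 65.5 CPM on Day 3, with no overlap. It fell by 0.51 ± 0.14 on Day 3 (adjusted p = 0.00407), 0.45 ± 0.14 on Day 7 and 0.40 ± 0.14 on Day 14, and stood at 85.3 ± 4.12 CPM on Day 28 (-0.15 ± 0.14, not called), while on scaled TPM the change on Day 28 was -0.61 and called. The Day 7 call was lost without EC Day 0 replicate 3 or EC Day 7 replicate 3, and the Day 14 call without EC Day 0 replicate 3 or EC Day 14 replicate 3 or 4, or with no filter (-0.39). From Day 3 to Day 28 it rose by 0.36 ± 0.14 (adjusted p = 0.0321), a call lost without EC Day 3 replicate 1 (0.31) or EC Day 28 replicate 2 (0.34), without the libraries with antisense reads (0.36), with no filter (0.31) and on scaled TPM (0.19). Tcf15 moved furthest of the 6, from 52.3, 32.8, 50.3 and 40.9 CPM on Day 0 to 10.8, 21.5, 10.3 and 20.2 CPM on Day 3. The fall was 1.49 ± 0.26 on Day 3 (adjusted p = 9.14e-05), 1.31 ± 0.26 on Day 7, 0.75 ± 0.25 on Day 14 and 0.74 ± 0.25 on Day 28, and Tcf15 rose by 0.75 ± 0.26 from Day 3 to Day 28 (adjusted p = 0.0216), so it came part of the way back. The Day 14 and Day 28 calls of Tcf15 were lost without EC Day 0 replicate 1 or 3 or without replicate 3 or 4 of the later day, with no filter (-0.74 and -0.77) and without the libraries with antisense reads (-0.80 and -0.72), and the rise to Day 28 without EC Day 3 replicate 1 or 3 or EC Day 28 replicate 1, and with no filter (0.70). On the scaled TPM the Day 3 changes were -0.80 for Meox2 and -1.42 for Tcf15, both called, and those of Tcf15 on Days 14 and 28 were -0.64 and -0.63, also called. Without the libraries with antisense reads the Day 3 changes were -0.65 and -1.54, both called. Levels of the factors were high enough to count, with 1148 to 2766 reads of Meox2 and 241 to 1240 of Tcf15 in an EC library.

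Whether the genes moved more than the 4 EC markers was asked by dividing each by the summed EC markers of its library. On Day 3 these markers stood at 0.859 times Day 0 in ECs, the capillary markers at 0.668 and the lymphatic markers at 1.81 times. No ratio to the capillary or lymphatic markers was made. In ECs the log2 ratio changed on Day 3 by -1.33 for Tcf15, -0.59 for Cd36, -0.58 for Lpl, -0.45 for Fabp4, -0.43 for Gpihbp1, -0.30 for Meox2 and 2.21 for Angptl4. On Day 28 it changed by -1.25 for Lpl, -0.77 for Fabp4 and -0.77 for Tcf15, and by -0.11 for Cd36. A two-sided exact permutation test set 4 against 4 libraries in 70 comparisons (7 genes, 5 days, ECs and CMs). Of these, 18 had the smallest p this design allows (0.0286), 17 of them in ECs. None was below an adjusted p of 0.05, the smallest being 0.111. A call would need many more comparisons than 18 at this smallest p, so the absence of calls decides nothing. The share of all genes that would reach this p was not taken. For Tcf15 the ratio was lower in every library of Days 3, 7, 14 and 28 than in every Day 0 library. For Cd36 all Day 3 libraries, at 50.5 to 71.1 reads per 100 marker reads, lay below the Day 0 libraries at 82.7 to 91.8.

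**Figure D4:**
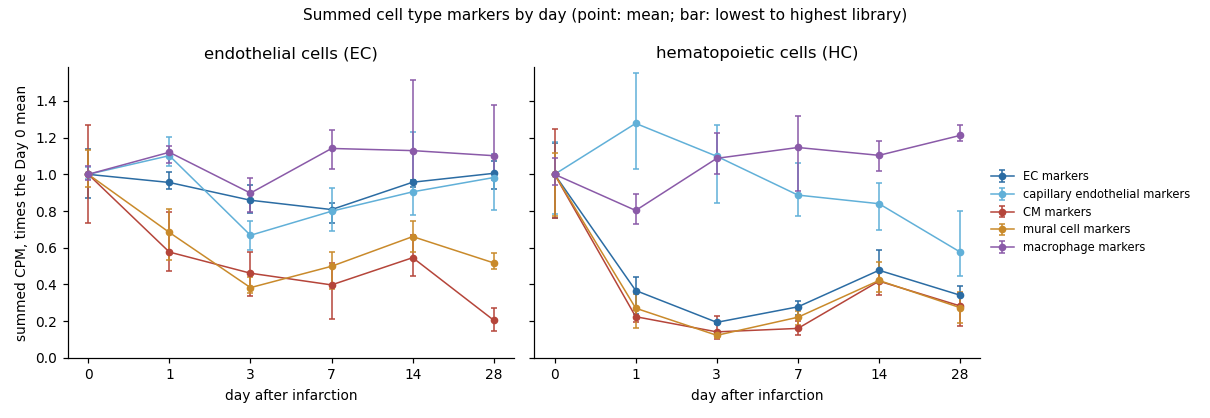
Summed CPM of cell type markers by day in EC and HC libraries, as multiples of the Day 0 mean (point: mean of 4 libraries, bar: lowest to highest). In ECs the EC markers stay at 0.808 or above while CM and mural cell markers fall, and in HCs the EC, CM and mural cell markers all fall to under 0.2 on Day 3.

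In FBs, too, Angptl4 rose and Lpl fell. Angptl4 was 17.3, 14.0, 12.2 and 16.1 CPM in FBs on Day 0, 83.2, 65.3, 135 and 77.2 on Day 1 and 81.1, 66.2, 43.5 and 91.1 on Day 3, with no overlap. It rose by 2.60 ± 0.36 on Day 1, 2.27 ± 0.36 on Day 3 and 1.30 ± 0.35 on Day 7, the last call being lost without FB Day 7 replicate 3. Lpl fell already on Day 1, from 1169, 1081, 1116 and 1145 CPM to 403, 395, 533 and 389 CPM (by 1.39 ± 0.21, adjusted p = 7.69e-05), and was still 501 ± 127 CPM on Day 14 (-1.17 ± 0.21), while the change on Day 28 was not called (-0.65 ± 0.21). In FBs 1 gene rose and 1 fell on Day 1 (17.9% of all genes called), 1 rose and 4 fell on Day 3 (49.1%), 1 rose and 5 fell on Day 7 (14.4%), 1 fell on Day 14 (10.9%, 2.62% called lower) and 2 fell on Day 28 (3.49%, 0.606% called lower). The falls of Day 28 were Fabp4 and Gpihbp1, neither called on unscaled or scaled TPM. Gpihbp1 on Day 28 and Tcf15 on Day 3 were each lost without any 1 of 6 libraries. On scaled TPM the falls of Cd36 and Lpl on Days 3 and 7 and of Gpihbp1 on Day 7 were not called. On unscaled TPM those of Cd36, Fabp4 and Gpihbp1 on Day 7 were not called, nor the rise of Angptl4 on Days 3 and 7. Without FB Day 3 replicates 2 and 3 and FB Day 28 replicate 4, Lpl on Day 3 was -1.32 and Angptl4 2.55, both called, and Cd36 on Day 3 was -0.78 and no longer called. The FB markers in these libraries stood at 0.939, 0.497, 0.702, 0.665 and 0.877 times Day 0 on Days 1, 3, 7, 14 and 28, the mural cell markers at 0.654, 0.519, 0.693, 0.790 and 0.690 times, and the CM markers at 7.78 times on Day 3. Their part in the changes was not tested. The 2 shallow libraries held as few as 9 reads of Meox2, 8 of Gpihbp1 and 2 of Tcf15.

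In HCs the 6 uptake genes were called lower on every day. Of these calls, Cd36 on Day 1 was lost without HC Day 0 replicate 2 or 3 or HC Day 1 replicate 4, with no filter (-0.47) and on scaled TPM (-0.35). Tcf15 on Day 14 was lost without any 1 of 6 libraries (HC Day 0 replicates 2 to 4 and HC Day 14 replicates 1 to 3), and Tcf15 on Day 28 without the libraries with antisense reads (-1.40). On unscaled TPM the falls of Cd36 were not called on any day. Nor were those of Fabp4, Gpihbp1, Lpl and Tcf15 on Days 14 and 28 and of Meox2 on Day 14. Meox2, Tcf15 and Gpihbp1 were lowest on Day 3 and Cd36, Fabp4 and Lpl on Day 7. On Day 3 Meox2 went from 7.33, 10.6, 12.2 and 14.5 CPM to 0.866, 1.43, 1.61 and 1.08 CPM (-3.16 ± 0.27, adjusted p = 5.02e-09) and Tcf15 from 2.99 to 5.69 CPM to 0.235 to 0.856 CPM (-3.29 ± 0.41). Gpihbp1 changed by -2.37 ± 0.28, Fabp4 by -1.82 ± 0.26, Lpl by -1.30 ± 0.20 and Cd36 by -1.03 ± 0.18 on that day. Angptl4 was higher on Days 1, 3 and 7, by 0.99 ± 0.34, 0.89 ± 0.34 and 0.91 ± 0.34, from 1.90 to 3.15 CPM on Day 0, and each of these calls was lost without at least 3 single libraries, HC Day 0 replicates 1 and 3 among them. So 7 of 7 genes were called on Days 1, 3 and 7 (41.9%, 46.5% and 28.0% of all genes called) and 6 fell on Days 14 and 28 (12.9% and 21.8%, of which 6.81% and 10.4% called lower). The summed EC markers moved with them in the HC libraries, at 0.367, 0.193, 0.278, 0.477 and 0.341 times Day 0 on Days 1, 3, 7, 14 and 28, and the CM markers stood at 0.224, 0.141, 0.160, 0.418 and 0.283 times. The 8 capillary markers did not follow them, at 1.28, 1.10, 0.887, 0.840 and 0.576 times. Per 100 EC marker reads, Gpihbp1 was 4.40 on Day 0 and 4.39 on Day 3, Fabp4 48.1 and 70.5, Meox2 2.07 and 1.21 and Tcf15 0.870 and 0.453, while Cd36 went from 175 to 439 and Lpl from 241 to 498. The part of EC RNA in these HC changes was not tested, and HC Days 1 and 7 were deposited as transcripts while Day 0 was deposited as genes.

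CMs had the fewest calls. Cd36 fell by 0.46 ± 0.15 on Day 3 (adjusted p = 0.0238), from 585, 455, 695 and 536 CPM to 493, 400.2, 422 and 330.5 CPM, and by 0.50 ± 0.15 on Day 14 (adjusted p = 0.0295). Both calls were lost without single libraries, 4 of them for Day 3 and 5 for Day 14, CM Day 0 replicates 1 and 3 in both cases, and on unscaled TPM the sign turned. Tcf15 was higher on Day 28 (0.99 ± 0.27, adjusted p = 0.0424), at 1.34 to 1.94 CPM against 0.697 to 0.934 CPM, on 18 to 69 reads a library, and the call was lost without any 1 of 7 libraries, all of Day 0 or Day 28. Lpl was 1776, 1244, 2033 and 1558 CPM on Day 0 and was not called on any day, with changes of 0.40 ± 0.17 on Day 1, 0.01 ± 0.17 on Day 3 and -0.05 ± 0.17 on Day 28. The CM and EC scales differ, and no level is compared between them here. None of the 7 was called on Day 1 (11.4% of all genes) or Day 7 (13.3%), and 1 was called on each of Day 3 (30.5%, 14.6% called lower), Day 14 (13.8%, 5.71% lower) and Day 28 (3.58%, 2.48% higher). With edgeR 3 of the 7 had an unadjusted p under 0.05 on Day 1 and 0 on Day 7, and DESeq2 called 0 on both days.

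**Figure D5:**
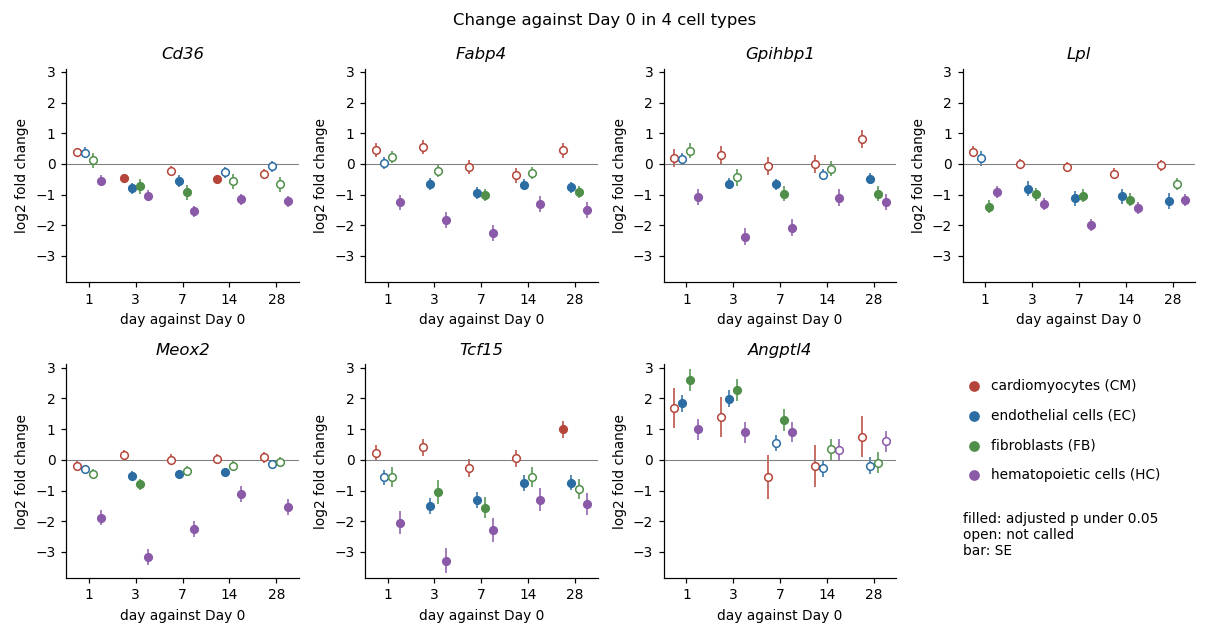
Log2 fold change of each gene against Day 0 by day, in CMs, ECs, FBs and HCs (bar: SE, filled: adjusted p under 0.05, open: not called). Angptl4 lies above 0 on Days 1 and 3 in all 4 types, called in ECs, FBs and HCs, and Meox2 and Tcf15 fall furthest in HCs.

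The change in ECs was tested against the mean change of CMs, FBs and HCs. Of 35 gene and day tests 3 were called. Lpl on Day 1 differed by 0.85 ± 0.24 (adjusted p = 0.0254, where 4.42% of all genes were called), being 0.19 in ECs, 0.40 in CMs, -1.39 in FBs and -0.90 in HCs. Meox2 on Day 3 differed by 0.76 ± 0.21 (adjusted p = 0.00676, 16.5% of all genes), the HC change of -3.16 weighing in the mean, and it was -0.36 on the scaled TPM. Cd36 on Day 28 differed by 0.68 ± 0.23 (adjusted p = 0.0406, 13.0% of all genes). Without the libraries with antisense reads Lpl was 1.01 and called, and Meox2 (0.54) and Cd36 (0.44) were not. On scaled TPM the differences of Lpl and Cd36 were not called, nor was that of Cd36 with no filter. On Days 7 and 14 none of the 7 was called (6.22% and 2.87% of all genes), while 1 gene on each day had an unadjusted p under 0.05 in edgeR and DESeq2 called 0. For the rise of Angptl4 on Day 3 the difference was 0.51 ± 0.49 (adjusted p = 0.535), so no difference between ECs and the other types was shown for it. Leaving out 1 library at a time, the Lpl call was lost without EC Day 0 replicate 1 or 3 or EC Day 1 replicate 2 or 3, and the Cd36 call without EC Day 0 replicate 1 or 2.

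Other genes of lipid handling moved both ways in ECs on Day 3, when 45.5% of all genes were called and 22.3% were called lower. Of 14 tested genes of fatty acid binding, transport and activation, 3 rose and 5 fell, with a median log2 change of -0.03, the same as over all genes. The lowest were the muscle carrier Fabp3 (-1.39 ± 0.30), the acyl-CoA synthetase Acsl1 (-1.19 ± 0.19) and the caveolar coat gene Cavin2 (-1.08 ± 0.13), and the highest that rose were the synthetases Acsl4 (0.89 ± 0.10) and Acsl5 (0.49 ± 0.08). Fabp3 is abundant in CMs, whose markers fell in the same libraries. Of 14 genes of lipoprotein lipolysis and uptake, 5 rose and 4 fell (median 0.05). The endocytic receptor Lrp1 (0.90 ± 0.26) and the protease Furin (0.61 ± 0.10) were higher, and Vldlr (-1.25 ± 0.25), the lipase Mgll (-1.02 ± 0.16) and Apoe (-0.79 ± 0.22) were lower. Of 17 genes of the PPAR and Vegfb axis, 10 fell and none rose (median -0.66), with Vegfb, a growth factor known to raise endothelial fatty acid uptake, at -0.86 ± 0.23, its receptor Nrp1 at -0.81 ± 0.09 and the coactivator Ppargc1a at -0.79 ± 0.28. Of 12 lipid droplet genes, 5 fell and none rose (median -0.27), with Dgat2 (-1.23 ± 0.28), Plin4 (-0.74 ± 0.28) and Plin3 (-0.38 ± 0.14) the lowest. On Day 28 the counts were 2 higher and 5 lower, 3 and 1, 1 and 6, and 0 and 5 for the same 4 lists, where 33.7% of all genes were called and 17.4% were called lower. At Day 0 the 4 lists, in the same order, summed to 4358, 820, 1344 and 748 CPM in CMs. In ECs they summed to 2535, 810, 1267 and 109 CPM. The CM markers in the EC libraries stood at 0.461 times Day 0 on Day 3 and 0.204 times on Day 28. The part of CM RNA in the changes of these lists was not tested.

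Fabp4 and Lpl are also genes of fat cells. In the EC libraries Lep had a median of 0 reads and at most 1, Adipoq a median of 6 and at most 172, Plin1 a median of 16 and at most 191 and Cidec a median of 3 and at most 146. The part of fat cells in the levels of Fabp4 and Lpl was not tested.

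Among 10330 genes with enough reads, those closest to each member over the 24 EC libraries were found by the Pearson correlation of log2 levels, as a description. Closest to Cd36 was Car4, a carbonic anhydrase of the capillary surface (r = 0.956), which went from 72.7 ± 8.93 CPM on Day 0 to 27.7 ± 4.50 on Day 3 and 58.9 ± 15.6 on Day 28. Closest to Gpihbp1 was Rbp7 (r = 0.929), a retinol-binding protein gene, followed by Fabp4 (r = 0.918). Closest to Fabp4 was Anp32a (r = 0.936), to Lpl Clip1 (r = 0.935), to Meox2 Palmd (r = 0.872), to Tcf15 Trnau1ap (r = 0.895) and to Angptl4 Sh2d5 (r = 0.933). Among the members, Fabp4 and Gpihbp1 were closest (r = 0.918), Meox2 and Tcf15 had r = 0.709, and Angptl4 ran from -0.42 with Meox2 to 0.42 with Lpl. Over the means of the 24 groups, Gpihbp1 and Fabp4 were again closest to each other (r = 0.994). These points share libraries, depth and cell mixture, so no p is given.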

How the data were processed

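Estimated counts of reads per gene or transcript were made by the authors with Salmon and deposited for each of 96 libraries. The TPM values were deposited by the authors beside these estimated counts. According to the study's methods and the submitters' processing notes, total RNA depleted of rRNA was made into libraries with a template-switching kit, reads were trimmed with Trim Galore, aligned with STAR 2.28 in 2 passes to mm10 and quantified by Salmon with Ensembl GRCm38.87. Of the files, 56 list 137734 transcripts and 40 list 51398 entries that are mostly genes. All CM and EC files and those of HC Days 1 and 7 are of the first kind. Transcript rows were summed to genes with GENCODE M21, and at most 0.3822% of reads had no gene. For HC and cross-type fits, 162 genes whose deposited length lay outside that of their transcripts were dropped, none of them one of the 7.

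Estimated counts were rounded and tested with edgeR 4.0.16 (quasi-likelihood, robust, TMM, filterByExpr) on R 4.3.3: once per cell type (24 libraries, 14530 to 18844 genes), once over the 16 Day 0 libraries and once over all 96 for the change in ECs against the mean change of the other types. P-values were adjusted per comparison by Benjamini-Hochberg over all genes tested, at 0.05, and SE is the fold change divided by the root of F. CPM scales differ between fits. Reads per 100 EC marker reads were taken with nothing added. For the log2 ratio, 0.5 was added to the count of the gene only, and a two-sided exact permutation test was used. The 7 genes and all lists were chosen with earlier results of these data known. Genes were named as the 3 lowest and 3 highest called in each list at 10 CPM or more, of which 1 is not reported here, and the closest by Pearson correlation at 5 CPM or more. Alternatives were DESeq2 1.42.0, limma 3.58.1 on log2(TPM + 1) and log2(TPM + 0.1), other filters and left-out libraries. Scaled TPM (median of ratios) was chosen after seeing the data. The scripts were tested on simulated data. Depth limits Tcf15 and Angptl4 most.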

Additional observations from a re-analysis of the deposited data

Results flagged for a closer look

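Of 168 groups of 4 libraries (7 genes, 24 groups), 16 held 1 library whose gap to the nearest other exceeded Dixon's 95% critical share of the group's range, where chance gives about 1 in 20. In ECs these were Gpihbp1 in Day 0 replicate 4 (179 CPM) and Day 28 replicate 4 (139.9 CPM), Angptl4 in Day 7 replicate 3 (20.5 CPM), Tcf15 in Day 7 replicate 1 (23.8 CPM), and Cd36 (4046 CPM) and Lpl (1140.0 CPM) in Day 14 replicate 4. In CMs they were Tcf15 in Day 0 replicate 4 (0.934 CPM) and Gpihbp1 in Day 1 replicate 1 (2.40 CPM). In FBs they were Lpl in Day 1 replicate 3 (533 CPM), Fabp4 in Day 1 replicate 1 (205 CPM) and Day 7 replicate 2 (94.2 CPM), and Tcf15 in Day 3 replicate 3 (3.03 CPM), which rests on 6 reads. In HCs they were Angptl4 (5.56 CPM), Lpl (626 CPM) and Gpihbp1 (7.73 CPM) in Day 3 replicate 4, and Gpihbp1 in Day 14 replicate 4 (15.5 CPM).

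The change in ECs differed from the mean change of the other cell types, by the test of that difference, for Lpl on Day 1 (0.85), Meox2 on Day 3 (0.76, turning to -0.36 on scaled TPM) and Cd36 on Day 28 (0.68). The calls of Lpl and Cd36 were lost on scaled TPM.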

How the results depend on the processing

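Of 126 called gene results, 88 kept the call without any 1 library and 38 lost it without at least 1. RLE scaling kept all 126 calls. Counts of calls that moved by over 1.5 times were as follows. Against Day 0 in CMs, 3 became 0 with no filter and 6 with the replicate block. Between later days in CMs, 3 became 5 with DESeq2 and 6 with the block. Against Day 0 in ECs, 22 became 13 on log2(TPM + 0.1), 12 on log2(TPM + 1) and 12 without the 8 libraries with antisense reads. In FBs, 16 became 10 on scaled TPM, and 8 between later days became 14 on log2(TPM + 0.1). In HCs, 33 became 17 on both TPM scales, and 12 between later days became 3 and 2, and 5 on scaled TPM. For the change in ECs against other types, 3 became 11 and 15, and 1 without the 8 libraries. Leaving out 1 library at a time gave 1 to 4 and 1 to 4 calls in CMs (against Day 0, then between later days), 16 to 23 and 7 to 10 in ECs, 14 to 17 and 6 to 10 in FBs, 28 to 34 and 7 to 14 in HCs, 16 to 18 between types at Day 0 and 1 to 3 for the change in ECs. That last run was made for the 12 libraries of EC Days 0, 1 and 3, and was not run for the others. The causes were not tested.

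Counting only values called on at least 1 of the scales compared, signs turned on unscaled log2(TPM + 0.1) and log2(TPM + 1), given in this order. For Cd36 they did in CMs on Day 3 (0.21, 0.21) and Day 14 (0.11, 0.11) and in ECs on Day 7 (0.66, 0.66), Day 14 (0.90, 0.90) and Day 28 (1.26, 1.26). For Fabp4 they did in ECs on Day 3 (0.38, 0.38), Day 7 (0.95, 0.95), Day 14 (1.17, 1.17) and Day 28 (1.197, 1.19), from Day 3 to Day 28 (0.81, 0.81), in FBs from Day 3 to Day 7 (0.46, 0.44) and Day 28 (0.24, 0.22), and for the change in ECs against other types on Day 28 (1.77, 1.77). For Gpihbp1 they did in ECs on Day 28 (0.82, 0.81) and in FBs from Day 3 to Day 7 (1.58, first scale). For Lpl they did in ECs on Day 7 (0.027, 0.026), for ECs against FBs (-0.93, -0.92) and HCs (-0.72, -0.71) at Day 0, and in FBs from Day 3 to Day 7 (0.83, first scale). For Meox2 they did in ECs on Day 7 (0.32, 0.29) and Day 14 (0.14, 0.12). For Tcf15 they did in ECs on Day 14 (0.32, 0.31) and Day 28 (0.51, 0.48), in FBs from Day 3 to Day 7 (1.44, 0.54), and for the change in ECs against other types on Days 14 and 28 (0.74 and 0.93, second scale). For Angptl4 they did in ECs on Day 14 (0.88, first scale) and Day 28 (1.36, 0.66), in FBs from Day 3 to Day 7 (0.11, 0.073) and for the change in ECs against other types on Day 28 (1.29, 0.74). By the same count, on scaled TPM they turned for Cd36 in ECs against CMs (-0.60), Fabp4 in ECs on Days 3, 14 and 28 (0.13, 0.18 and 0.022), and Meox2 for the change in ECs on Days 3 and 14 (-0.36 and -0.57).

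The cell types of a day share mice, but no source says that equal numbers mark the same mice, and within a cell type samples share only a replicate number. Same-numbered libraries had a mean correlation of deviations of 0.272 in CMs, -0.032 in ECs, -0.006 in FBs and 0.080 in HCs, and of 0.0587 between cell types at Day 0. With the replicate block 123 of the 126 calls were kept and 7 were added, in CMs among them Cd36 and Lpl on Day 1 (0.38 and 0.41) and Fabp4 on Day 3 (0.59), and no call between cell types changed. The ratio to EC markers was called 0 times with either other denominator, under the same limit on the smallest p. It was not tested without single libraries or the 8 libraries, since the exact permutation test of 3 against 4 libraries cannot go below p = 0.0571.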

Other observations

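Another carrier moved most in HCs, and was chosen after its values were seen. Fabp5, a further fatty acid binding protein gene, was highest in ECs at Day 0. On the scale of the 16 Day 0 libraries it was 128 ± 19.6 CPM in ECs, 19.3 in FBs, 16.9 in CMs and 14.2 in HCs. On the HC scale it was 17.4 to 30.1 CPM on Day 0 and 603, 456, 568 and 1883 CPM on Day 3. It rose in HCs by 5.20 ± 0.54 in log2 on Day 3 (edgeR, adjusted p = 8.06e-08), by 2.87 on Day 1 and by 2.22 on Day 7. Hilpda, an inhibitor of the lipase Atgl at lipid droplets, rose in HCs by 4.38 ± 0.32 on Day 1 and 3.39 on Day 3, and the droplet coat gene Plin2 by 2.39 and 2.55. Fabp3, the muscle carrier, in HCs fell by 3.07 on Day 3, where the CM markers stood at 0.141 times Day 0. In CMs Fabp5 rose by 1.97 ± 0.22 on Day 3 (edgeR, adjusted p = 2.31e-07), where the summed macrophage markers of the CM libraries stood at 10.8 times Day 0. The part of these other cells was not tested.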
